A study of Homo sapiens with 12 samples.

Results

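The nucleolar ribosome biogenesis genes are 42 genes, listed by symbol, whose proteins transcribe ribosomal RNA, modify it or assemble it into ribosomal subunits in the nucleolus. All 42 were found among the 57992 Ensembl genes of the count table, and all 42 had enough counts to be tested in each comparison. Their expression was measured by RNA sequencing in BT-549 and SUM149 cells, which are established lines from human breast tumours. Both are triple-negative, a tumour type that lacks the estrogen receptor, the progesterone receptor and HER2. The cells stably carried short hairpin RNA, either CshRNA as the control or MUC1shRNA, which targets the mRNA of MUC1, a mucin of the cell surface. Its C-terminal part, MUC1-C, crosses the membrane and is known to act in signalling. The 4 groups were BT-549 CshRNA, BT-549 MUC1shRNA, SUM149 CshRNA and SUM149 MUC1shRNA, with 3 libraries each. BT-549 cells grew in RPMI1640 medium with serum, insulin and antibiotics, and SUM149 cells in Ham's F-12 medium with serum, HEPES, insulin, hydrocortisone and antibiotics. The BT-549 controls are called vector in the count table and CshRNA in the titles. The sources used here do not say whether a group was 1 clone or a pool of cells, how many hairpins were used or what their sequences were. The labels speak of separate sets of cells but not of separate introductions of the hairpin, so the p-values rest on the spread between these libraries, which may be technical.

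Ribosome production starts in the nucleolus, where RNA polymerase I copies the ribosomal DNA repeats into a long precursor RNA. Small nucleolar ribonucleoproteins (snoRNPs) then guide chemical changes on the precursor, the box C/D class by methylating ribose and the box H/ACA class by converting uridine to pseudouridine. Assembly factors cut, fold and load the precursor with ribosomal proteins until the small (40S) and large (60S) subunits leave for the cytoplasm. This output is known to scale with cell growth, and enlarged nucleoli are a long-known feature of cancer cells.

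Libraries held 7931614 to 24140623 counts, and the SUM149 CshRNA libraries were on average 2.44 times as deep as the SUM149 MUC1shRNA libraries. MUC1 stood at 51.9, 53.7 and 54.3 CPM (counts of the gene per 1000000 scaled library counts) in BT-549 CshRNA libraries 1, 2 and 3 and at 3.60, 6.02 and 4.28 CPM with MUC1shRNA. In SUM149 it stood at 16.4, 16.6 and 12.1 CPM with CshRNA and 1.06, 0.334 and 0.482 CPM with MUC1shRNA. The silenced libraries were thus below every control library of their line (log2 fold changes -3.53 and -4.59, adjusted p = 4.2e-07 and 1.8e-08, edgeR). By a chi-square measure on raw counts, BT-549 CshRNA 3, BT-549 MUC1shRNA 2 and SUM149 CshRNA 3 differed most from the other libraries of their groups. This measure grows with depth, so it flags the shallower SUM149 MUC1shRNA libraries less readily. The 7 leukocyte markers had group means of at most 4.76 CPM, with CD3E at 0 in all 12 libraries, and the 4 adipocyte markers had at most 0.678 CPM. The 6 endothelial markers summed to 8.49 to 41.0 CPM per library, with VWF and CDH5 at most 0.317 CPM. Of these, PECAM1 had 28.4 CPM in SUM149 CshRNA and 9.72 CPM in SUM149 MUC1shRNA, and ROBO4 had 7.15 CPM in BT-549 CshRNA and 16.3 CPM in BT-549 MUC1shRNA. All 8 epithelial markers were lower in BT-549 CshRNA than in SUM149 CshRNA. Of these, EPCAM and CDH1 had group means of at most 1.37 CPM in BT-549 and at least 199.9 CPM in SUM149. KRT18 had 290 CPM in BT-549 CshRNA and 655 CPM in BT-549 MUC1shRNA, against 393 and 427 CPM in SUM149. KRT8 had 44.5 and 282 CPM in BT-549, against 561 and 588 CPM in SUM149. The 8 epithelial markers together had 329 to 383 CPM in BT-549 CshRNA, 808 to 1047 CPM in BT-549 MUC1shRNA and 1931 to 2049 CPM in SUM149. The 6 mesenchymal markers together had 5443 to 7749 CPM in BT-549, 845 to 955 CPM in SUM149 CshRNA and 3057 to 3433 CPM in SUM149 MUC1shRNA, the last led by FN1. Of the receptors that define the tumour type, ERBB2 had group means of 36.6 to 58.6 CPM, ESR1 at most 4.88 CPM and PGR at most 0.517 CPM. The part of these differences in the results below was not tested.

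The main comparison asked which of these genes differed between MUC1shRNA and CshRNA cells of each line. In BT-549, 25 of the 42 genes fell and 1, GAR1, rose, while 16 did not pass the test. In SUM149 the balance was the other way: 17 rose, 6 fell and 19 did not pass. The fallen genes in BT-549 came from every role, from the polymerase I subunit POLR1A to the box C/D methyltransferase FBL and the large subunit factor BOP1. The risen genes in SUM149 were led by the small subunit factor UTP20 and the helicase DDX18. Changes were small in both lines, with log2 fold changes from -0.62 to 0.24 in BT-549 and from -0.54 to 0.67 in SUM149.

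Genes were called past the test at an adjusted p below 0.05 from edgeR's quasi-likelihood fit over all genes of a line. In the following, signed values in parentheses are log2 fold changes from this fit, and calls lost without a library are given with their adjusted p. In BT-549 this rule called 33.3% of 13200 tested genes, 16.8% as higher and 16.5% as lower, against 2.38% and 59.5% of the 42. In SUM149 it called 56.5% of 14178 tested genes, 27.6% as higher and 28.9% as lower, against 40.5% and 14.3% of the 42. The median log2 fold change of the 42 was -0.19 in BT-549, where that of all tested genes was -0.0053, and 0.12 in SUM149, where that of all tested genes was -0.034. With upper-quartile scaling the SUM149 split was 14 higher and 9 lower. Without the libraries that stood apart, 2 genes were higher and 26 lower in BT-549, and 17 higher and 6 lower in SUM149. Leaving out each SUM149 library in turn gave 13 to 17 higher and 3 to 6 lower in that line. The libraries of both arms did not overlap for 29 of the 42 in BT-549 (47% of all tested genes) and for 27 in SUM149 (62.6%). Summed over the 42 genes, the level was 9476, 9410 and 9887 CPM in BT-549 CshRNA and 8561, 8535 and 8540 CPM in BT-549 MUC1shRNA. In SUM149 the sums were 9428, 9401 and 8874 CPM with CshRNA and 9279, 9374 and 9229 CPM with MUC1shRNA, so the arms did not overlap in BT-549 and did in SUM149. These sums weigh the most abundant genes most. NPM1 and NCL had means of 1902 and 1550 CPM in BT-549 CshRNA and of 1214 and 1814 CPM in SUM149 CshRNA. In these bulk samples, fewer cells that express a gene and less of its RNA per cell cannot be told apart.

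**Figure D1:**
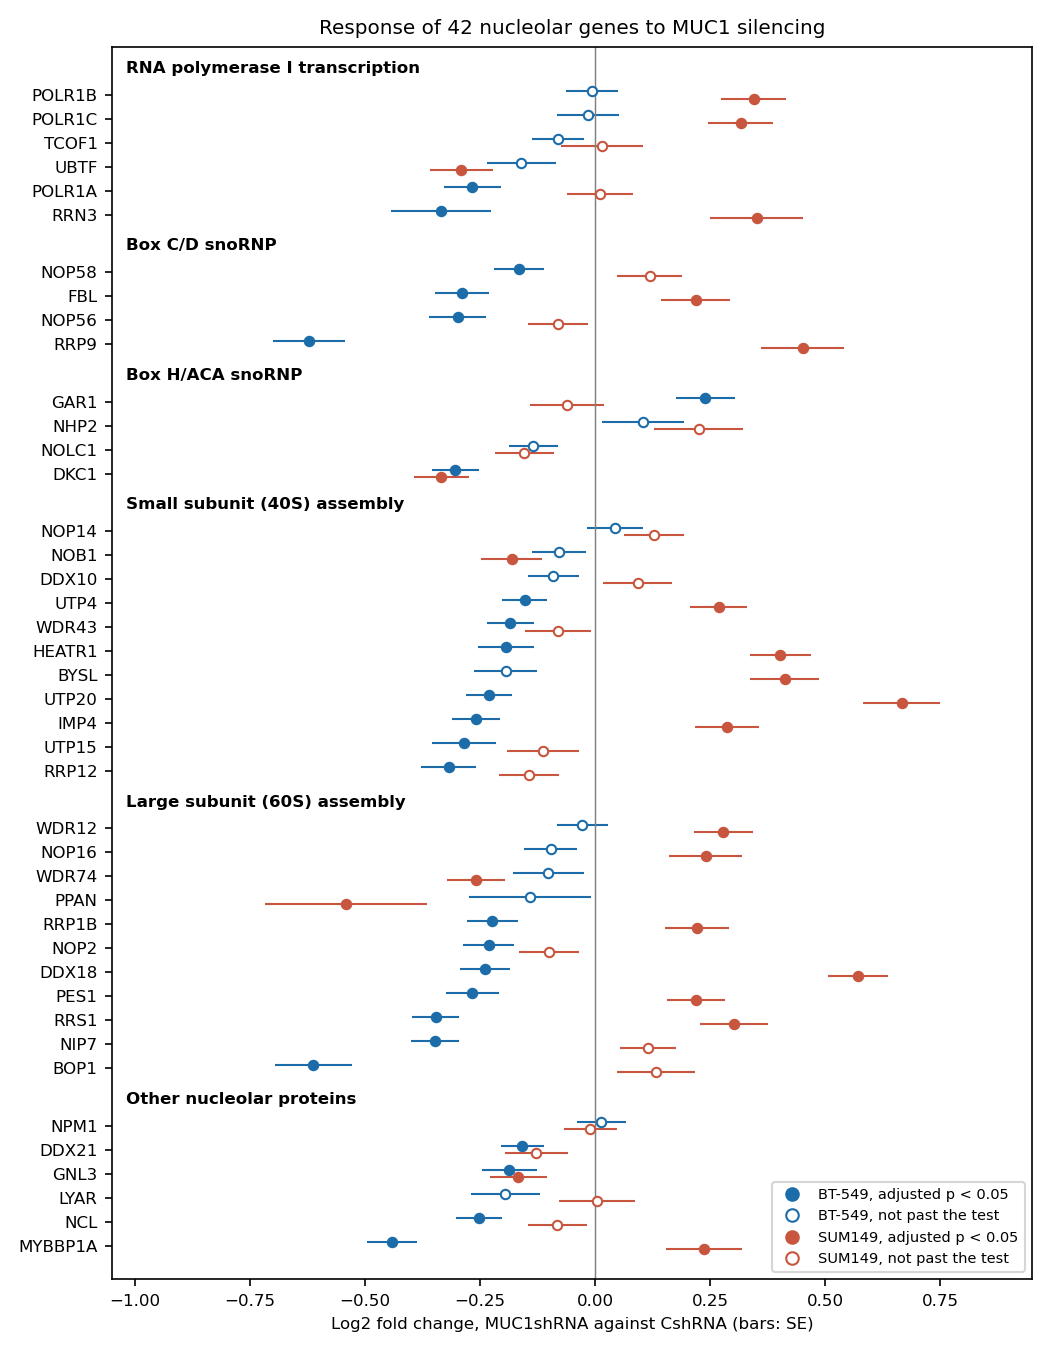
Log2 fold change of each of the 42 genes with MUC1shRNA against CshRNA (horizontal axis) by role (vertical axis), for BT-549 in blue and SUM149 in red; bars are standard errors (SE) and filled points passed the test at an adjusted p below 0.05. The filled blue points lie left of 0 for 25 genes and right of 0 for GAR1, while the filled red points lie right of 0 for 17 genes and left of 0 for 6.

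Of the 6 RNA polymerase I transcription genes, 2 fell in BT-549, and in SUM149 3 rose and 1 fell. POLR1A, the largest subunit of the polymerase, stood at 124, 115 and 129.7 CPM in BT-549 CshRNA and 105, 97.6 and 104 CPM in BT-549 MUC1shRNA. The silenced BT-549 libraries all lay below the controls (log2 fold change -0.27, SE 0.06, adjusted p = 0.0094). Its SUM149 arms overlapped, at 189.7, 167 and 171 CPM with CshRNA and 174, 186 and 167 CPM with MUC1shRNA (adjusted p = 0.92). RRN3 (TIF-IA), which brings the polymerase to its promoter, stood at 17.5, 15.2 and 17.9 CPM in BT-549 CshRNA and 11.9, 14.0 and 14.6 CPM with MUC1shRNA. For RRN3 the SUM149 values were 16.9, 15.3 and 17.9 CPM with CshRNA and 22.4, 19.3 and 21.6 CPM with MUC1shRNA. RRN3 thus fell in BT-549 (-0.33, SE 0.11, adjusted p = 0.039) and rose in SUM149 (0.35, SE 0.10, adjusted p = 0.0095), with no overlap of the arms in either line. The BT-549 call ended without MUC1shRNA 1 (-0.25, adjusted p = 0.16), MUC1shRNA 3 (0.051), CshRNA 1 (0.12) or CshRNA 3 (0.103), and the SUM149 call without CshRNA 2 (0.052).

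UBTF, which holds ribosomal DNA repeats in an active state, was the member of this role that fell in SUM149. It stood at 146, 132 and 133 CPM with CshRNA and 111, 115 and 107 CPM with MUC1shRNA there, with no overlap (-0.29, SE 0.07, adjusted p = 0.0026). In BT-549, UBTF had 173, 162 and 199.6 CPM with CshRNA and 158, 164 and 158 CPM with MUC1shRNA, overlapping values that did not pass (-0.16, adjusted p = 0.13). POLR1C is a subunit that polymerases I and III share. It stood at 40.2, 39.5 and 43.5 CPM in BT-549 CshRNA and 41.8, 39.2 and 41.3 CPM in BT-549 MUC1shRNA, which overlapped. In SUM149 it rose from 44.7, 45.7 and 46.4 CPM to 52.9, 56.7 and 59.0 CPM (0.32, SE 0.07, adjusted p = 0.0019). POLR1B, the second-largest subunit, also rose in SUM149 (0.34, adjusted p = 0.001) and had a log2 fold change of -0.01 in BT-549. TCOF1 (treacle), a nucleolar phosphoprotein that works with polymerase I, did not pass in either line (adjusted p = 0.31 and 0.89).

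All 4 box C/D snoRNP genes fell in BT-549, and 2 of them, FBL and RRP9, rose in SUM149. RRP9, a protein of the U3 snoRNP that is needed for cleaving the precursor (ENSG00000114767.6, GRCh38 chromosome 3, 51933430 to 51941941, minus strand), had the largest negative fold change of the 42 in BT-549. It stood at 60.9, 59.6 and 70.3 CPM with CshRNA and 40.2, 43.6 and 40.6 CPM with MUC1shRNA in that line. The lowest control was well above the highest silenced library (-0.62, SE 0.08, adjusted p = 0.00039). SUM149 libraries held 20.7, 21.5 and 23.0 CPM of RRP9 with CshRNA and 27.5, 32.1 and 28.6 CPM with MUC1shRNA, a rise with no overlap (0.45, SE 0.09, adjusted p = 0.00083). FBL (fibrillarin), the methyltransferase of the box C/D particle, stood at 168, 183 and 183 CPM in BT-549 CshRNA and 152, 145 and 140.3 CPM with MUC1shRNA. All silenced libraries were lower (-0.29, SE 0.06, adjusted p = 0.0046). In SUM149, FBL had 67.0, 69.7 and 78.7 CPM with CshRNA and 79.0, 86.5 and 82.7 CPM with MUC1shRNA. The arms came close at 78.7 and 79.0 CPM without overlapping (0.22, SE 0.07, adjusted p = 0.023), and the call ended without CshRNA 1 (adjusted p = 0.12), CshRNA 2 (0.085), MUC1shRNA 2 (0.051) or MUC1shRNA 3 (0.071).

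NOP56 and NOP58, the paired core proteins of the same particle, fell in BT-549 (-0.30, adjusted p = 0.0058, and -0.17, adjusted p = 0.039) and did not pass in SUM149 (-0.08 and 0.12). The NOP58 call in BT-549 remained past the test without CshRNA 2 and ended without each of the other 5 libraries (adjusted p from 0.054 to 0.145). The balance of NOP56 to FBL, as a log2 ratio of CPM per kilobase of exon, was -0.46 ± 0.08 in BT-549 CshRNA and -0.47 ± 0.13 in BT-549 MUC1shRNA (SD, n = 3 each). In SUM149 that ratio was 1.07 ± 0.16 with CshRNA and 0.77 ± 0.018 with MUC1shRNA (SD, n = 3 each). In RNA per kilobase, FBL was thus above NOP56 in BT-549 and below it in SUM149. This order rests on the exon lengths used, 5398 bases for NOP56 and 2173 for FBL. The difference of the ratio between the lines does not depend on them. These ratios are descriptions without a test.

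The 4 box H/ACA snoRNP genes did not move as 1 group. DKC1 (dyskerin), the pseudouridine synthase of the particle (ENSG00000130826.16, chromosome X, 154762742 to 154777689, plus strand), fell in both lines. It stood at 358, 356 and 384 CPM in BT-549 CshRNA and 298, 299.7 and 293 CPM with MUC1shRNA (-0.30, SE 0.05, adjusted p = 0.0019). SUM149 libraries held 349, 361 and 349 CPM with CshRNA and 281, 282 and 269 CPM with MUC1shRNA (-0.33, SE 0.06, adjusted p = 0.00035). The arms did not overlap in either line. GAR1, a core protein bound to dyskerin (ENSG00000109534.16, chromosome 4, 109815510 to 109824740, plus strand), was the 1 gene of the 42 that rose in BT-549. Its BT-549 values were 41.6, 39.9 and 37.5 CPM with CshRNA and 46.9, 47.7 and 46.1 CPM with MUC1shRNA, without overlap (0.24, SE 0.06, adjusted p = 0.017), and the call ended without MUC1shRNA 1 (0.24, adjusted p = 0.064). In SUM149 GAR1 overlapped between 39.2, 42.8 and 40.3 CPM with CshRNA and 41.6, 36.7 and 37.9 CPM with MUC1shRNA (adjusted p = 0.53).

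The log2 ratio of GAR1 to DKC1 per kilobase was -2.17 ± 0.13 in BT-549 CshRNA and -1.63 ± 0.0098 in BT-549 MUC1shRNA (SD, n = 3 each). In SUM149 it was -2.08 ± 0.04 and -1.80 ± 0.097 (SD, n = 3 each), so the silenced libraries had the higher ratio in both lines, without overlap. NHP2, another core protein, did not pass in either line (0.10, adjusted p = 0.4, and 0.23, adjusted p = 0.063), nor did the snoRNP chaperone NOLC1 (-0.13, adjusted p = 0.079, and -0.15, adjusted p = 0.055). Under alternative settings, NHP2 passed as higher in 2 of 15 in BT-549 and 3 of 14 in SUM149. NOLC1 passed as lower in 2 of 15 in BT-549 and 7 of 14 in SUM149. Of NHP2's exon bases, 27.4% lie opposite RMND5B. The sources used here do not name the strand setting of the counting, so reads of genes on opposite strands cannot be told apart.

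Of the 11 small subunit assembly genes, 7 fell in BT-549, and in SUM149 5 rose and 1 fell. UTP20, a scaffold of the small subunit processome (ENSG00000120800.4, chromosome 12, 101280109 to 101386616, plus strand), had the largest rise of the 42 in SUM149. It stood at 113, 106 and 102 CPM with CshRNA and 184, 146 and 175 CPM with MUC1shRNA there (0.67, SE 0.08, adjusted p = 1.7e-05). BT-549 libraries held 122, 120.1 and 119.6 CPM with CshRNA and 103, 99.7 and 106 CPM with MUC1shRNA, a fall with no overlap (-0.23, SE 0.05, adjusted p = 0.0069). BYSL (bystin), which acts in small subunit maturation, rose in SUM149 from 47.0, 50.4 and 50.3 CPM to 61.1, 70.5 and 63.0 CPM (0.41, SE 0.08, adjusted p = 0.00042). Its BT-549 values were 62.2, 57.7 and 67.0 CPM with CshRNA and 54.0, 55.7 and 54.1 CPM with MUC1shRNA. They did not overlap, and the difference narrowly missed the threshold (-0.19, adjusted p = 0.051).

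HEATR1, which belongs to the subcomplex that joins the precursor first, stood at 235, 221 and 216 CPM in BT-549 CshRNA and 206, 183 and 201 CPM with MUC1shRNA. SUM149 had 333, 306 and 301 CPM with CshRNA and 434, 389 and 409.7 CPM with MUC1shRNA. HEATR1 thus rose in SUM149 (0.40, SE 0.07, adjusted p = 0.0002) and fell in BT-549 (-0.19, SE 0.06, adjusted p = 0.034), and 23.2% of its exon bases lie opposite LGALS8. The BT-549 call remained past the test without CshRNA 3 and ended without each of the other 5 libraries (adjusted p from 0.057 to 0.12). NOB1, the endonuclease that makes the final cut of the small subunit RNA, was the 1 gene of this role that fell in SUM149. It stood at 115, 111 and 125 CPM with CshRNA and 101, 99.9 and 105 CPM with MUC1shRNA there, without overlap (-0.18, SE 0.07, adjusted p = 0.032), and the call ended without CshRNA 3 (0.088), MUC1shRNA 1 (0.084), MUC1shRNA 2 (0.103) or MUC1shRNA 3 (0.085). Its BT-549 arms overlapped at 72.0, 69.8 and 66.9 CPM and 67.5, 67.2 and 63.3 CPM (adjusted p = 0.33). Of NOB1's exon bases, 20.25% lie opposite NQO1-DT.

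IMP4 and UTP4, which act with the U3 snoRNP and in the early subcomplex, fell in BT-549 (-0.26, adjusted p = 0.0046, and -0.15, adjusted p = 0.039) and rose in SUM149 (0.29, adjusted p = 0.0032, and 0.27, adjusted p = 0.0022). UTP15, WDR43 and RRP12 fell in BT-549 (-0.29, -0.18 and -0.32) and did not pass in SUM149 (-0.11, -0.08 and -0.14). NOP14 and the helicase DDX10 passed in neither line (log2 fold changes from -0.09 to 0.13). The UTP4 call in BT-549 remained past the test without CshRNA 2 and ended without each of the other 5 libraries (adjusted p from 0.079 to 0.13), and that of WDR43 ended without CshRNA 2 (0.06), MUC1shRNA 1 (0.083) or MUC1shRNA 3 (0.075).

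Of the 11 large subunit assembly genes, 7 fell in BT-549, and in SUM149 6 rose and 2 fell. BOP1, PES1 and WDR12 form the PeBoW complex, which is needed to process the large subunit RNA. BOP1 stood at 165, 140.3 and 168 CPM in BT-549 CshRNA and 98.6, 113 and 98.3 CPM with MUC1shRNA, with no overlap (-0.61, SE 0.08, adjusted p = 0.0006). SUM149 values overlapped, at 79.3, 81.7 and 90.4 CPM with CshRNA and 84.6, 103 and 85.7 CPM with MUC1shRNA (adjusted p = 0.2). PES1 fell in BT-549 (-0.27, adjusted p = 0.0062) and rose in SUM149 (0.22, adjusted p = 0.0091), a rise that did not pass without CshRNA 2 (adjusted p = 0.06). WDR12 rose in SUM149 (0.28, adjusted p = 0.0023) and had a log2 fold change of -0.03 in BT-549. Within the complex, the log2 ratio of BOP1 to PES1 per kilobase was -0.15 ± 0.085 in BT-549 CshRNA and -0.49 ± 0.11 in BT-549 MUC1shRNA (SD, n = 3 each), without overlap.

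DDX18, a helicase of the pre-60S particle (ENSG00000088205.12, chromosome 2, 117814650 to 117832379, plus strand), stood at 187, 169 and 181 CPM in BT-549 CshRNA and 153, 152 and 151 CPM with MUC1shRNA. In SUM149 it had 157, 158 and 147 CPM with CshRNA and 237, 215 and 229.6 CPM with MUC1shRNA. DDX18 fell in BT-549 (-0.24, SE 0.05, adjusted p = 0.0083) and rose in SUM149 (0.57, SE 0.07, adjusted p = 8.1e-06), with no overlap in either line. RRS1, which helps to place the 5S RNA in the large subunit, stood at 104, 98.1 and 99.9 CPM in BT-549 CshRNA and 79.6, 78.5 and 79.9 CPM with MUC1shRNA (-0.35, SE 0.05, adjusted p = 0.00092). SUM149 libraries held 41.4, 41.5 and 46.4 CPM of RRS1 with CshRNA and 52.4, 53.4 and 52.1 CPM with MUC1shRNA (0.30, SE 0.07, adjusted p = 0.0033). The RRS1 arms were apart in both lines. NIP7, a pre-60S factor, fell in BT-549 from 130.1, 135 and 135 CPM to 107, 107 and 101 CPM (-0.35, SE 0.05, adjusted p = 0.00097). Its SUM149 arms, at 193, 207 and 197 CPM and 211, 212 and 218 CPM, did not overlap either, but the difference did not pass (0.12, adjusted p = 0.12), and 20.2% of its exon bases lie opposite COG8.

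The genes of this role that fell in SUM149 were PPAN and WDR74. PPAN, the human homologue of a yeast large subunit factor, had the lowest level per kilobase of the 42, with as few as 38 counts in a library. It stood at 8.51, 9.41 and 7.71 CPM in SUM149 CshRNA and 4.48, 7.24 and 5.69 CPM in SUM149 MUC1shRNA (-0.54, SE 0.18, adjusted p = 0.018). The arms did not overlap, and the call ended without CshRNA 2 (0.069), MUC1shRNA 1 (0.079) or MUC1shRNA 3 (0.066). BT-549 values of PPAN overlapped, at 7.95, 9.36 and 7.47 CPM and 8.23, 7.49 and 6.62 CPM (adjusted p = 0.45). Since 56.0% of PPAN's exon bases are shared with the read-through gene PPAN-P2RY11 on the same strand, its count is uncertain. WDR74, a factor released from pre-60S particles during maturation, stood at 81.4, 80.1 and 81.1 CPM in SUM149 CshRNA and 67.2, 65.1 and 68.5 CPM with MUC1shRNA (-0.26, SE 0.06, adjusted p = 0.0033). Its BT-549 arms overlapped at 33.2, 33.4 and 37.5 CPM and 31.2, 31.9 and 34.2 CPM (adjusted p = 0.34). Of the others, RRP1B fell in BT-549 (-0.22) and rose in SUM149 (0.22), the methyltransferase NOP2 fell in BT-549 (-0.23) and did not pass in SUM149 (-0.10), and NOP16 rose in SUM149 (0.24) with a log2 fold change of -0.10 in BT-549. The RRP1B calls ended without BT-549 CshRNA 1 (0.051) and without SUM149 CshRNA 3 (0.055), and that of NOP16 without CshRNA 1 (0.09), MUC1shRNA 2 (0.061) or MUC1shRNA 3 (0.061).

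Of the 6 other nucleolar proteins, 4 fell in BT-549, and 1 rose and 1 fell in SUM149. NPM1 (nucleophosmin), an abundant histone and ribosome chaperone, stood at 1812, 1887 and 2005 CPM in BT-549 CshRNA and 1906, 1957 and 1909 CPM with MUC1shRNA. It had 1198, 1256 and 1189 CPM in SUM149 CshRNA and 1174, 1187 and 1224 CPM with MUC1shRNA. The arms overlapped in both lines, with log2 fold changes of 0.01 (SE 0.05) and -0.01 (SE 0.06). NCL (nucleolin), which binds nascent precursor RNA, stood at 1512, 1521 and 1619 CPM in BT-549 CshRNA and 1288, 1319.5 and 1308 CPM with MUC1shRNA, a fall without overlap (-0.25, SE 0.05, adjusted p = 0.0042). In SUM149 NCL overlapped between 1889.6, 1866 and 1686 CPM and 1732, 1732 and 1632 CPM (-0.08, adjusted p = 0.29).

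DDX21, an RNA helicase that links polymerase I and II transcription, stood at 839, 819 and 804 CPM in BT-549 CshRNA and 754, 713 and 744 CPM with MUC1shRNA (-0.16, SE 0.05, adjusted p = 0.029). This call remained past the test without CshRNA 3 and ended without each of the other 5 libraries (adjusted p from 0.059 to 0.091). SUM149 values of DDX21 were 874, 851 and 766 CPM and 785, 725 and 749.6 CPM, which overlapped (adjusted p = 0.12). MYBBP1A, a nucleolar protein that represses several transcription factors, stood at 271, 253 and 279 CPM in BT-549 CshRNA and 202, 195 and 197 CPM with MUC1shRNA. It fell there (-0.44, SE 0.05, adjusted p = 0.00033). In SUM149 its values were 206, 197 and 182 CPM with CshRNA and 209, 255 and 219 CPM with MUC1shRNA, adjoining but not overlapping (0.24, SE 0.08, adjusted p = 0.025). That rise did not pass without CshRNA 2 (0.051) or MUC1shRNA 2 (0.081).

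GNL3 (nucleostemin), a nucleolar GTPase known from stem and cancer cells, fell in both lines (-0.19, adjusted p = 0.036, and -0.17, adjusted p = 0.035). Its BT-549 call remained past the test only without CshRNA 1 or MUC1shRNA 2 among the 6 libraries, and its SUM149 call only without CshRNA 1 (adjusted p elsewhere from 0.056 to 0.14). LYAR, a nucleolar zinc finger protein, passed in neither line (-0.20, adjusted p = 0.071, and adjusted p = 0.98).

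The difference between the lines in their response to MUC1shRNA was tested in a single fit of the 12 libraries. Of the 42 genes, 22 differed, 21 with a lower and 1, GAR1, with a higher response in BT-549 than in SUM149. The same test called 39.6% of 15649 genes, 20.1% as lower and 19.5% as higher. RRP9 had the largest difference, -1.06 (SE 0.12, adjusted p = 6.2e-06), followed by UTP20 at -0.88 (SE 0.10, adjusted p = 9.8e-06), DDX18 at -0.80 (SE 0.08, adjusted p = 2.3e-06) and BOP1 at -0.73 (SE 0.13, adjusted p = 0.0004). RRS1 differed by -0.63 (SE 0.09, adjusted p = 3.5e-05). For FBL the difference was -0.49 (adjusted p = 0.0009), while DKC1, NPM1 and NCL did not pass (0.05, 0.04 and -0.15, adjusted p = 0.64, 0.7 and 0.13). By role, the lower response in BT-549 held for 4 of 6 polymerase I transcription genes, 3 of 4 box C/D genes, 0 of 4 box H/ACA genes, 5 of 11 small subunit genes, 8 of 11 large subunit genes and 1 of 6 other nucleolar proteins. Without the 3 libraries that stood apart, 18 responses were lower and 1, that of UBTF, higher.

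Across both lines, 12 of the 42 genes (28.6%) fell in BT-549 and rose in SUM149, against 5.14% of the 12125 genes tested in both. They were RRN3, FBL, RRP9, UTP20, UTP4, HEATR1, IMP4, RRP1B, RRS1, PES1, DDX18 and MYBBP1A. None rose in BT-549 and fell in SUM149 (4.79% of all), none rose in both (5.97%), and 2, DKC1 and GNL3, fell in both (5.11%). These counts are tied to the single-line shares of the 42, 59.5% lower in BT-549 and 40.5% higher in SUM149. Since only GAR1 rose in BT-549, at most 1 gene could be counted as rising there. Whether genes took opposite directions more often than the single-line shares give was not tested. For 7 genes, TCOF1, NHP2, NOLC1, NOP14, DDX10, NPM1 and LYAR, neither line passed (30.1% of all). The interaction of all 12 opposite genes passed under each of 20 alternative settings. Since the 12 were picked by their opposite calls in the same libraries, this is not separate support. For 5 of the 12, RRP9, UTP20, IMP4, RRS1 and DDX18, both single-line calls also passed under each alternative. Across the 42 genes the log2 fold changes of the lines had a Pearson r of -0.15 and a Spearman rho of -0.13, given as a description since genes are not independent replicates. Over the 12125 genes r was 0.028 and rho 0.04.

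**Figure D2:**
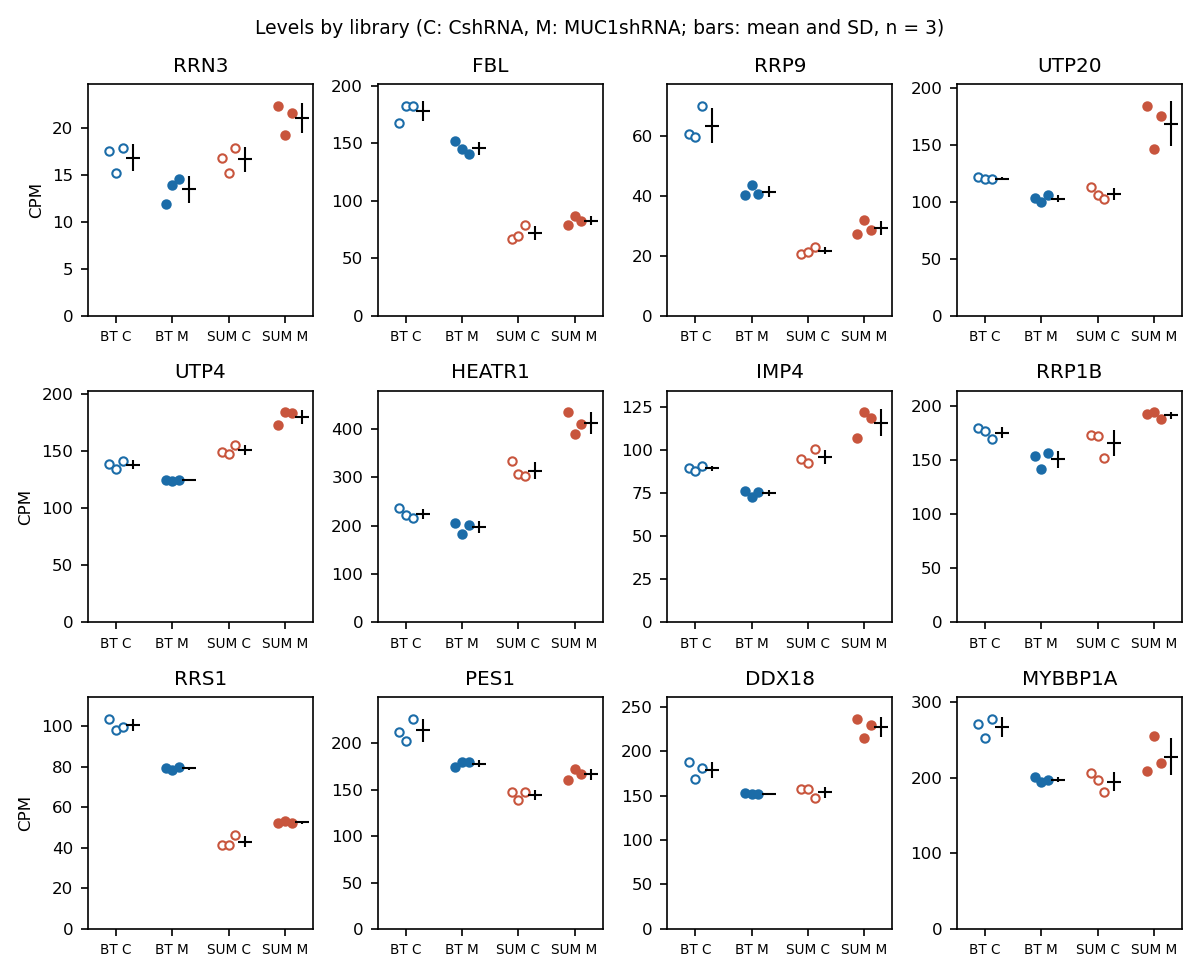
CPM (vertical axis, from 0) of the 12 genes that fell in BT-549 and rose in SUM149, in each of the 4 groups (BT C and BT M: BT-549 with CshRNA and MUC1shRNA; SUM C and SUM M: SUM149 likewise). Points are libraries and black bars mean and SD (n = 3). No silenced library overlaps the controls of its line in any panel, and RRP9, FBL, RRS1 and PES1 are higher in BT-549 than in SUM149 in both arms.

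Promoter windows from 250 bases before to 50 after the start of transcription were available from RefSeq (GRCh38.p14) for 34 of the 42 genes, in 45 windows because 11 genes had 2 starts. NOP58, DDX18, BOP1, RRP1B, RRS1, RRP12, NOLC1 and TCOF1 were not matched. The windows were searched on both strands for the E-box core CACGTG, for an ETS-type core with the letters CCGGAA, for the NF-Y motif, which reads CCAAT, for a GC box written GGGCGG, and for the TATA box as TATAAA. The E-box core was found in 15 of 34 genes (44.1%), against 8.78% of all 27305 genes with a RefSeq window. Those genes were not limited to genes expressed in these cells, as the 34 are. The ETS-type core was found in 18 of 34 (52.9%, against 20.1%) and the GC box in 25 (73.5%, against 48.3%). The NF-Y motif was found in 14 (41.2%, against 39.7%) and the TATA box in 1 (2.94%, against 14.0%). Of the 12 genes with opposite calls in both lines, 9 had a window and 7 of these held CACGTG, as did 8 of the other 25. Of the same 9 genes, 7 held the GC box (18 of the other 25), 6 the ETS-type core (12 of 25), 6 the NF-Y motif (8 of 25) and 1 the TATA box (0 of 25). No binding was measured here, and a match only says that these letters are in the window.

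The 26-base stretches around CACGTG (in capitals) are shown for those 7 genes as an example of 1 motif and its surroundings. Other motifs were as frequent or nearly so in these genes. Each is written 5′ to 3′ on the gene's strand with 10 bases on either side.
FBL (chr19:39846358-39846383, minus strand): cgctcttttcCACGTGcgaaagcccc
RRP9 (chr3:51941894-51941919, minus strand): gttcagctgcCACGTGagttctgcgg
UTP20 (chr12:101280085-101280110, plus strand): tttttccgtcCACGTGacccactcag
UTP4 (chr16:69132623-69132648, plus strand): agcgcgcgcgCACGTGgggccggggc
IMP4 (chr2:130342684-130342709, plus strand): ggtcctaagtCACGTGtgacattctg
IMP4 (chr2:130342902-130342927, plus strand): ctcccggaccCACGTGgaagcggcac
PES1 (chr22:30591882-30591907, minus strand): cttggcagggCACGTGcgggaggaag
MYBBP1A (chr17:4555342-4555367, minus strand): ggccggagcaCACGTGtttcgtgttt
IMP4 held the motif at 2 places. Counted from the start of transcription, the first base of the motif lay at 7 for FBL, -5 for RRP9, -10 for UTP20, -16 for UTP4, -203 and 16 for IMP4, 14 for PES1 and 28 for MYBBP1A.

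Stretches before the start are shown for RRP9, which fell in BT-549 and rose in SUM149, and DKC1, which fell in both lines, with CCGGAA in capitals. They were chosen with IMP4 as the matched genes with the smallest larger adjusted p of the 2 lines, and only bases outside annotated exons are printed, which left 213 bases for RRP9, 128 for DKC1 and 0 for IMP4.
RRP9 (chr3:51941942-51942154, minus strand): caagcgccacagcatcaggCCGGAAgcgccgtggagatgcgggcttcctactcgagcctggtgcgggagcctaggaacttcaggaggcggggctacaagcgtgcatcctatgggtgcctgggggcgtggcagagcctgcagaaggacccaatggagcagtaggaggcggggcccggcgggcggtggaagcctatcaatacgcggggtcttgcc
DKC1 (chrX:154762614-154762741, plus strand): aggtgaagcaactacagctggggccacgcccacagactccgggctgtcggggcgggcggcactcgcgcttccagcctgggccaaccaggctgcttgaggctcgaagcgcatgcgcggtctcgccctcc
The DKC1 stretch held none of CACGTG or CCGGAA on either strand and so has no capitals. The RRP9 stretch held CCGGAA at 1 place, while its CACGTG lies at the start of transcription in the shorter stretch above.

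In the control cells, levels were compared between the lines, which also differ in medium and in how their libraries are named. In the count table all BT-549 names, controls included, share an ending that the SUM149 names lack. Line, medium and any separate handling of the libraries cannot be told apart. Of the 42 genes, 17 were higher in BT-549 CshRNA, 17 lower and 8 did not pass, and the same test called 83% of 15649 genes, 39.5% as higher and 43.5% as lower. The groups did not overlap for 34 of the 42 (84% of all tested genes). The largest positive log2 differences were RRP9 at 1.55, FBL at 1.31, RRS1 at 1.22, BOP1 at 0.91 and NOP16 at 0.86. The largest negative ones were WDR74 at -1.22, LYAR at -1.01, NOP14 at -0.97, NOB1 at -0.75 and WDR43 at -0.61. Upper-quartile scaling moved the median of all genes from -0.07 to -0.19 and gave 14 higher and 20 lower. DKC1, GAR1, DDX21, TCOF1, PPAN, RRN3, IMP4 and RRP1B did not pass (adjusted p from 0.13 to 0.87).

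Levels per kilobase of exon, which scale counts by gene length, spanned a wide range. The length is the union of all annotated exons, retained introns included, so the order of genes depends in part on the annotation. NPM1 was highest in BT-549 CshRNA at 497 ± 25.4 CPM per kilobase and in SUM149 CshRNA at 317 ± 9.49 CPM per kilobase (SD, n = 3 each). NCL followed at 224 ± 8.54 and 262 ± 16.1, DDX21 at 163 ± 3.45 and 165 ± 11.4, and NOLC1 at 97.8 ± 4.12 and 128 ± 6.96 CPM per kilobase. The first 4 places in the mean over all libraries were thus held by NPM1, NCL, DDX21 and NOLC1, and their levels were apart by more than the SDs. The lowest means over all libraries were those of PPAN, RRN3 and POLR1C. In BT-549 CshRNA and SUM149 CshRNA, PPAN stood at 3.20 ± 0.380 and 3.31 ± 0.329, RRN3 at 4.06 ± 0.354 and 4.01 ± 0.318, and POLR1C at 7.40 ± 0.388 and 8.21 ± 0.156 CPM per kilobase. Within these groups WDR12 was below POLR1C in BT-549 (7.25 ± 0.131), and RRP12 and DDX10 were below it in SUM149 (7.73 ± 0.279 and 7.93 ± 0.525). Next below DKC1, NOP56, NOP58 and FBL had means over all groups of 60.4, 55.3 and 55.0 CPM per kilobase. FBL could not be ordered against NOP56 or NOP58 over all groups, since it was above both in BT-549 and below both in SUM149. Nucleophosmin exceeded nucleolin by a log2 ratio of 1.15 ± 0.028 in BT-549 CshRNA and 1.42 ± 0.012 with MUC1shRNA, and by 0.28 ± 0.077 and 0.35 ± 0.08 in SUM149 (SD, n = 3 each). The ratio was apart between the arms of BT-549 and overlapped between those of SUM149.

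**Figure D3:**
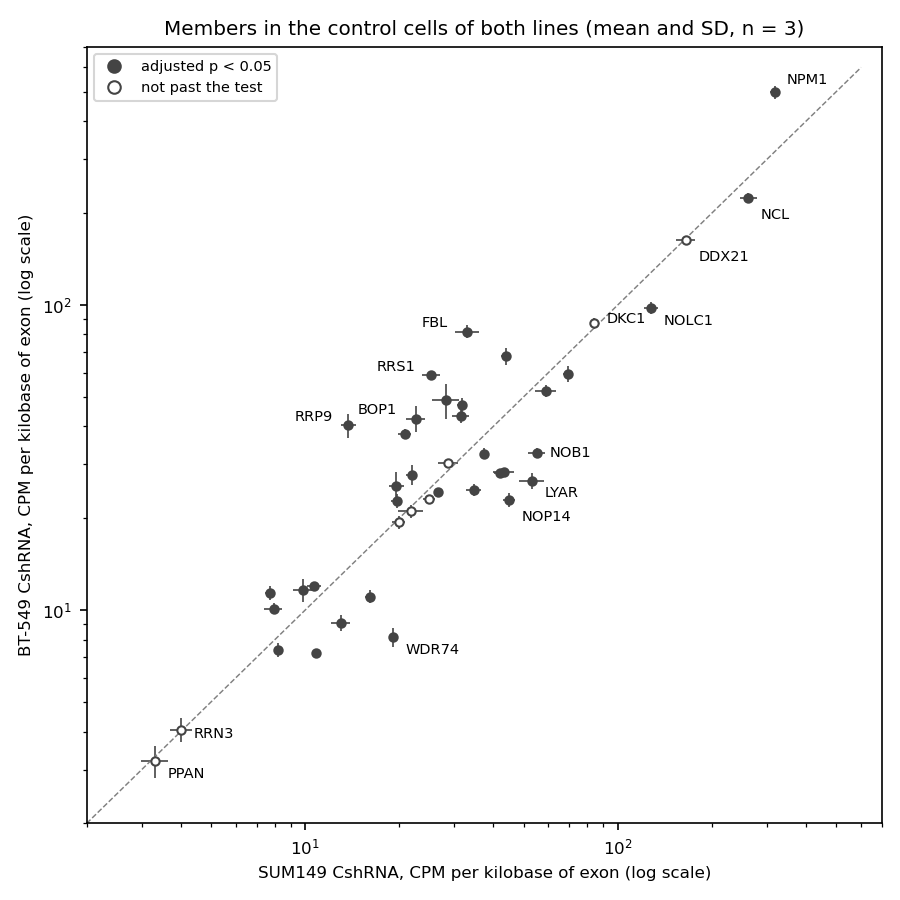
Level of the 42 genes in SUM149 CshRNA (horizontal axis) and BT-549 CshRNA (vertical axis), both in CPM per kilobase of exon on log axes, as mean and SD (n = 3), with filled points past the test at an adjusted p below 0.05. RRP9, FBL, RRS1 and BOP1 lie above the dashed line of equal level and WDR74, LYAR, NOP14 and NOB1 below it.

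Some of the 42 genes carry small nucleolar RNA genes within their bounds. Per GENCODE release 29 these were POLR1C, NOP56, NOP58, DKC1, WDR43, PPAN, NCL and GNL3. In SUM149, 1 of these 8 rose and 3 fell, with a median log2 fold change of -0.08, while of the other 34 genes 16 rose and 3 fell, with a median of 0.18. In BT-549, 6 of the 8 fell, with a median of -0.19, and of the other 34, 1 rose and 19 fell, with a median of -0.20. This split was chosen after the values were seen and was not tested.

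Other genes of the same pathway, from lists of further subunits and factors, were counted next to the 42. Over all tested genes, 16.8% rose and 16.5% fell in BT-549, and 27.6% rose and 28.9% fell in SUM149. Of the other small subunit genes, 18 of 41 fell and 2 rose in BT-549, and 27 of 43 rose and 0 fell in SUM149. NOL6, a processome scaffold, had -0.59 in BT-549 (adjusted p = 0.00014), and NOL11 rose by 0.78 in SUM149 (adjusted p = 1.8e-06). For the other large subunit genes, 19 of 41 fell and 3 rose in BT-549, and 20 of 41 rose and 3 fell in SUM149. FTSJ3, a methyltransferase of precursor RNA, fell by 0.28 in BT-549 (adjusted p = 0.0039) and rose by 0.85 in SUM149 (adjusted p = 1.4e-07). Of 9 further polymerase I subunits and factors, 1 rose (11.1%) and 2 fell (22.2%) in BT-549. In SUM149, 3 of them rose (33.3%) and 2 fell (22.2%), so this list was near the shares over all genes. POLR1G was lower in BT-549 (-0.47, adjusted p = 0.0011), and TAF1D lower in SUM149 (-0.49, adjusted p = 3.1e-05). Among 10 further snoRNP proteins and assembly factors, 0 rose and 2 fell in BT-549, and 5 rose and 1 fell in SUM149. SHQ1, a chaperone of dyskerin, rose by 0.86 in SUM149 (adjusted p = 1.8e-06), and RUVBL2 fell by 0.34 in BT-549 (adjusted p = 0.0026). Over these 4 lists together, 41 of 101 fell (40.6%) and 6 rose (5.94%) in BT-549. In SUM149, 55 of 103 rose (53.4%) and 6 fell (5.83%). The interaction was lower in BT-549 for 61 (59.2%, against 20.1% of all tested genes) and higher for 6 (5.83%, against 19.5%).

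Neighbouring machines were counted in the same way, to be read against the same shares over all tested genes. Of 11 RNA exosome subunits, which trim precursor RNA, 4 fell in BT-549, and 6 rose and 1 fell in SUM149. Of 9 RNA polymerase III subunits, 5 fell in BT-549, and 4 rose and 3 fell in SUM149. POLR3G, a subunit of the polymerase III form known from stem cells and tumours, rose from 24.4 ± 2.18 CPM to 82.8 ± 7.96 CPM in SUM149 (SD, n = 3 each; log2 fold change 1.78, SE 0.09, adjusted p = 4.7e-09). The 13 noncoding host genes of small nucleolar RNAs went the other way in SUM149, where all 13 fell, with a median log2 fold change of -1.12. SNHG1 had 314 ± 18.9 CPM with CshRNA and 125 ± 6.32 CPM with MUC1shRNA there (SD, n = 3 each; -1.32, SE 0.07, adjusted p = 6.2e-09). In BT-549, 3 of the 13 rose and 5 fell, with a median of 0.01.

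MYC, a transcription factor known to drive ribosome biogenesis genes, stood at 193, 182 and 212 CPM in BT-549 CshRNA and 178, 176 and 175 CPM with MUC1shRNA, which did not pass (-0.16, SE 0.06, adjusted p = 0.084). In SUM149 it fell from 479, 494 and 466 CPM to 343, 382 and 357 CPM (-0.40, SE 0.06, adjusted p = 0.00016). The MYC arms did not overlap in either line. On the list of MYC and its partners, 0 of 8 passed in BT-549 with edgeR, DESeq2 or limma-voom (2, 1 and 2 at an unadjusted p below 0.05), and 1 rose and 6 fell in SUM149. The part of MYC in the changes of the 42 genes was not tested.

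**Figure D4:**
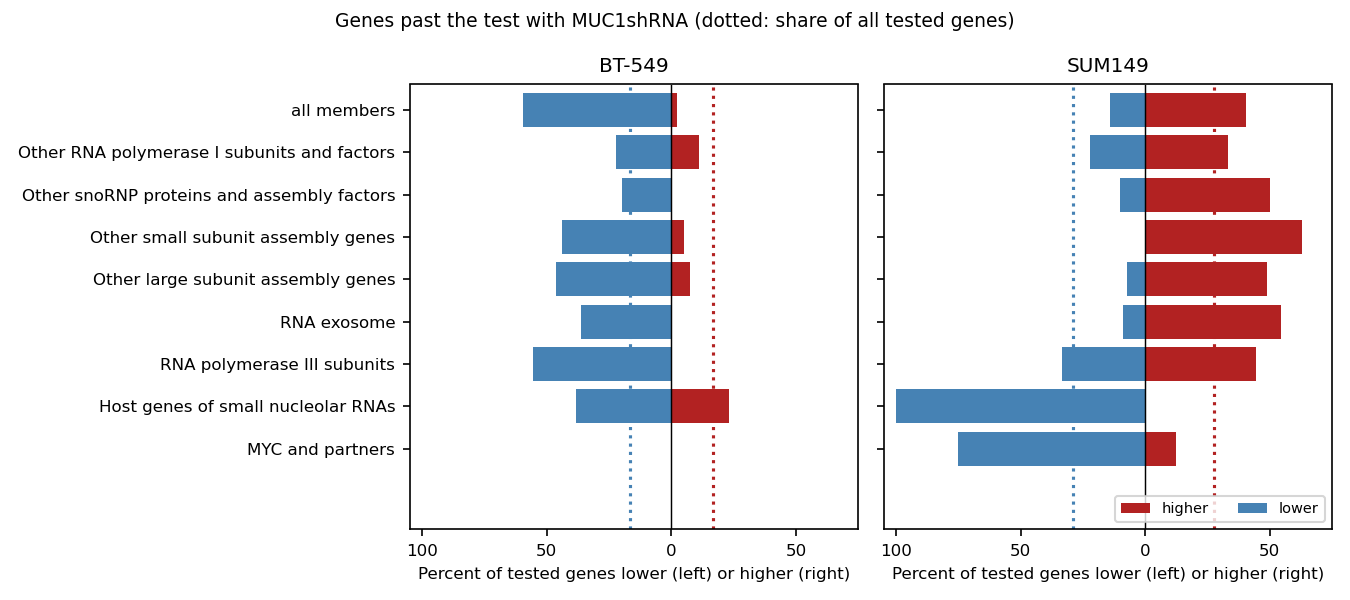
Percent of the tested genes of each list that passed the test as lower (left of 0, blue) or higher (right of 0, red) with MUC1shRNA in BT-549 and SUM149; dotted lines give the shares over all tested genes. The 42 genes (top row) reach 59.5% lower in BT-549 and 40.5% higher in SUM149, and the host genes of small nucleolar RNAs reach 100% lower in SUM149.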

How the data were processed

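RNA sequencing had been done on 12 libraries, 3 for each of the 4 groups, from Trizol RNA with the TruSeq Stranded mRNA kit, per the labels' protocols. The deposited values are whole-number read counts per Ensembl gene, made by the authors. Genome build GRCh38.p7 and the programs STAR 2.7.0, CASAVA 1.8.2 and DESeq2 1.24.0 appear in the submitters' processing notes, with no roles stated. The counting program and strand setting are not given.

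The 42 genes and all lists were chosen with earlier results of these data known. Of 57992 IDs, 57388 matched GENCODE release 29, and 45 Y rows of the pseudoautosomal regions were left out. Each line was fitted alone in edgeR 4.0.16 (R 4.3.3), with TMM scaling, its default filter on low counts, the quasi-likelihood test and Benjamini-Hochberg adjustment over all tested genes at a threshold of 0.05. One fit of 12 libraries gave the interaction and the control comparison. CPM were scaled by TMM over the 12 libraries, and levels per kilobase divide by the union of annotated exons, retained introns included. Scripts were tested on simulated data.

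Alternatives were other scalings and filters, DESeq2 1.42.0, limma 3.58.1 (voom), all libraries in a single fit, a replicate block and leaving out each library. Leaving out the libraries that stood apart was added after seeing the data. Values per library are given for MUC1, for the members with the 5 largest called changes in each direction and line, the 4 smallest interaction p-values and the 3 highest and 3 lowest levels, and for NCL, NPM1, FBL, POLR1A and UBTF.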

Additional observations from a re-analysis of the deposited data

Results flagged for a closer look

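The response to MUC1shRNA differed between the lines for 22 of the 42 genes, by edgeR's interaction test at an adjusted p below 0.05, against 39.6% of all tested genes. Values are the log2 fold change in BT-549 minus that in SUM149. Among polymerase I transcription genes the difference was -0.26 for POLR1A, -0.34 for POLR1B, -0.31 for POLR1C and -0.67 for RRN3. For box C/D genes it was -0.49 for FBL, -0.27 for NOP58 and -1.06 for RRP9, and for the box H/ACA gene GAR1 it was 0.32. Small subunit genes differed by -0.88 (UTP20), -0.41 (UTP4), -0.58 (HEATR1), -0.53 (IMP4) and -0.59 (BYSL). Large subunit genes differed by -0.32 (NOP16), -0.43 (RRP1B), -0.63 (RRS1), -0.29 (WDR12), -0.73 (BOP1), -0.47 (PES1), -0.80 (DDX18) and -0.45 (NIP7). MYBBP1A differed by -0.66.

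Of these, 16 of the 21 lower responses passed under each of the 20 alternatives, and the calls of POLR1A, POLR1C, NOP58, NOP16, WDR12 and GAR1 ended under at least 1. The POLR1A call passed without BT-549 CshRNA 2, SUM149 CshRNA 1 or SUM149 MUC1shRNA 3 and ended without any other single library (adjusted p from 0.053 to 0.11). The GAR1 call ended without BT-549 CshRNA 3 (0.051), the POLR1C call without SUM149 MUC1shRNA 3 (0.052) and the NOP16 call without SUM149 CshRNA 1 (0.0575) or MUC1shRNA 2 (0.057). That of NOP58 ended when SUM149 CshRNA 3 (0.053), SUM149 MUC1shRNA 3 (0.0685) or BT-549 MUC1shRNA 3 (0.06) was left out. The lines also differ in medium and, for SUM149, in depth between the arms, and the part of either was not tested.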

How the results depend on the processing

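Compared with the reported fit, no value of the 42 genes changed its sign in an alternative where either of the fits passed the test. Values near 0 that did not pass did, such as POLR1C in BT-549 (-0.042 to 0.062). Between alternatives of the control comparison, DDX21 (-0.14 to 0.050) and GAR1 (-0.16 to 0.027) changed sign, and both passed only with upper-quartile scaling. In BT-549, 570 of 630 gene values stayed on their side of the threshold, 51 lost the call and 9 gained it. In SUM149 these were 542, 31 and 15 of 588, for the interaction 808, 29 and 3 of 840, and for the control lines 796, 40 and 4 of 840. Called genes that held throughout were 17 of 25 lower in BT-549, 11 of 17 higher and 3 of 6 lower in SUM149. The number higher in BT-549 was 0 to 2 with 1 library left out (0 without MUC1shRNA 1, 2 without CshRNA 3, where NHP2 joined GAR1) and 2 without both libraries that stood apart. The median log2 fold change was -0.22 to -0.18 in BT-549 with 1 library left out and -0.17 without both. In SUM149 it was 0.059 with upper-quartile scaling and 0.068 to 0.13 with 1 library left out, where 3 to 6 genes were lower (3 without MUC1shRNA 1 or MUC1shRNA 3). The cause was not tested. DESeq2 ended the single-line calls of RRN3, NOP58 and UTP4 in BT-549 and of NOB1 and GNL3 in SUM149. Upper-quartile scaling ended those of FBL, NOP16 and MYBBP1A in SUM149, RLE scaling that of GNL3 in SUM149, and a single fit of all libraries those of NOP58 and DDX21 in BT-549. Without a filter on low counts the interaction called 17 of the 42, NOP58, UTP4, WDR43 and DDX21 did not pass in BT-549, and FBL did not in SUM149. PPAN had as few as 38 counts in a library, which limits its precision.

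Replicate numbers did not pair the libraries: deviations of same-numbered libraries correlated by 0.168, -0.362 and -0.288 in BT-549 and -0.066, 0.105 and 0.130 in SUM149. The largest correlation, 0.449, was between differently numbered libraries, BT-549 CshRNA 3 and BT-549 MUC1shRNA 2, which both stood apart. Its cause was not tested. With a replicate block, 0 genes were higher and 17 lower in BT-549, where RRN3, NOP58, GAR1, UTP4, WDR43, HEATR1, RRP1B, DDX21 and GNL3 lost the call, 17 higher and 7 lower in SUM149, and 0 higher and 19 lower in the interaction.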
